A study of Mus musculus with 7 samples.

Results

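Matricellular proteins are secreted into the extracellular matrix but serve mainly as signals between matrix and cells, rather than as scaffold. The genes read here were Postn (periostin), Tnc (tenascin-C), the thrombospondins Thbs1, Thbs2 and Thbs4, Sparc, the CCN family members Ctgf (current symbol Ccn2) and Cyr61 (current symbol Ccn1), and Fn1, which encodes the adhesive glycoprotein fibronectin. The members were taken by symbol from the gene column of the expression table, and 9 of 9 were found among 23420 gene rows. In a resting adult heart most of these proteins are scarce. After injury many of them are made by activated fibroblasts. Different members bind integrins, syndecans or CD47, and thrombospondin-1 can release TGF-beta from its latent form. Ctgf and Cyr61 are also textbook targets of the transcriptional coactivators YAP and TAZ, which act through TEAD factors.

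The hearts came from a mouse model of myocarditis caused by immune checkpoint inhibitors (ICI), in which loss of checkpoint genes stands in for the drugs. All 7 mice were labelled Pdcd1-/-, that is, without the PD-1 receptor. The 4 controls were Ctla4+/+ and the 3 ICI-myocarditis mice were Ctla4+/-, so the groups differed by 1 copy of Ctla4 and by the disease named in the labels. Mice were 3 to 6 weeks old and untreated. The labels give this same range for all 7 mice and no age for each, so the age balance of the groups is not known. Total RNA of flash-frozen ventricle (labelled whole heart in the tissue field) was sequenced in bulk, 1 library per mouse. In bulk tissue, fewer cells of a type and less RNA per cell cannot be told apart. The contrast asked which transcripts differed between myocarditis and control ventricles.

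Recovered library totals ran from 20931730 to 39037176 reads. Control 2 stood apart from the other controls: on the first principal component of all tested genes, which held 68.6% of the variance, it scored 2.25, against -96.7 to -61.2 for controls 1, 3 and 4 and 58.9 to 105 for ICI-myocarditis libraries. Its summed level of 7 T cell genes was 1611 normalized counts, against 128 to 203 in the other controls and 6852 to 10495 in ICI-myocarditis. The targeted genes did not check the labels, because Pdcd1 was read in all 7 libraries (2.50 to 244 normalized counts in controls, 1096 to 1481 in ICI-myocarditis) and Ctla4 was higher where 1 copy is missing (29.2 to 114 and 251 to 373).

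Of the 9 genes, 6 rose in ICI-myocarditis and 3 did not pass the test. Tnc, Thbs4, Thbs1, Postn, Ctgf and Fn1 rose, by 3.90-fold (Fn1) to 35.4-fold (Tnc), and in each of them all 3 ICI-myocarditis hearts lay above all 4 controls. Thbs2, Sparc and Cyr61 had overlapping groups. For scale, 11.7% of the 15258 genes tested were called higher, 4.00% were called lower and 17.3% had every ICI-myocarditis library above every control. The median log2 fold change was 2.10 over the 9 members and -0.02 over all genes tested. Calls are those with a limma adjusted p below 0.05 on log2(normalized count + 1), and fold changes are on that scale. The 6 calls held in all 17 alternative analyses, among them those without control 2 or without any other library. In the authors' deposited table the same 6 genes had adjusted p-values from 4.24e-19 (Postn) to 1.53e-05 (Fn1), and Thbs2, Sparc and Cyr61 had 0.927, 0.665 and 0.775. Together the 9 genes took 0.117% to 0.176% of reads in control libraries and 0.291% to 0.538% in ICI-myocarditis libraries.

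**Figure D1:**
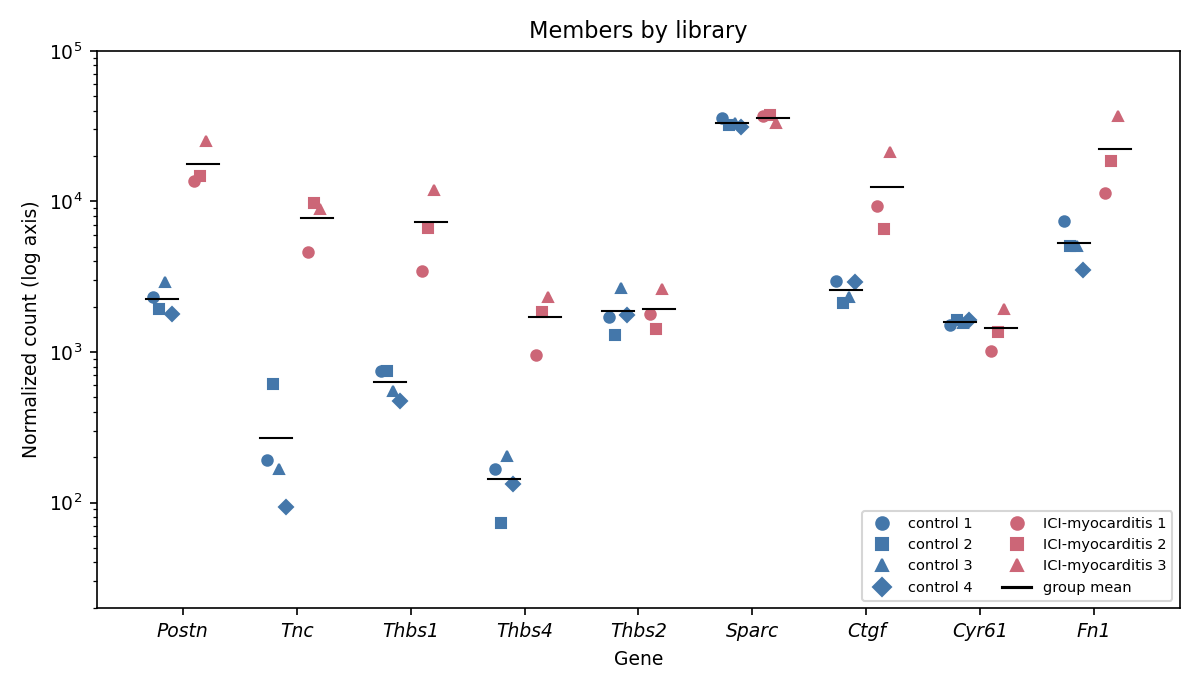
Normalized counts (log axis) of the 9 genes in each library, with control hearts in blue, ICI-myocarditis hearts in red, a marker shape for each replicate number and a black line at each group mean. Postn, Tnc, Thbs1, Thbs4, Ctgf and Fn1 show groups that do not overlap, while Thbs2, Sparc and Cyr61 overlap.

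Postn encodes periostin, a fasciclin-domain protein that binds collagen and integrins and is widely used as a marker of activated cardiac fibroblasts. Its gene lies on chromosome 3 (54361109 to 54391037, plus strand, GRCm38). Postn had 2314, 1917, 2911 and 1789 normalized counts in controls 1 to 4 and 13694, 14635 and 25048 in ICI-myocarditis 1 to 3. The lowest myocarditis heart was thus far above the highest control, and ICI-myocarditis 3 was the highest. Postn rose by 2.96 log2 units (limma SE 0.284, adjusted p = 0.00251), from 2233 ± 504 (SD, n = 4) to 17792 ± 6301 (SD, n = 3).

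Tnc encodes tenascin-C, a large de-adhesive glycoprotein that is abundant in embryonic and healing tissue and nearly absent from the healthy adult ventricle. Its gene spans 63959785 to 64047015 on chromosome 4 (minus strand). Tnc had 191, 617, 166 and 93.8 normalized counts in controls 1 to 4 and 4644, 9708 and 8901 in ICI-myocarditis 1 to 3. Control 2, the control with the most T cell transcripts, was also the highest control for Tnc. The log2 fold change of Tnc, 5.15 (SE 0.558, limma adjusted p = 0.00251), was the largest of the 9 in this fit. It was 5.67 without control 2. The part of immune cells in this was not tested.

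The thrombospondins split. Thbs1 and Thbs2 encode the trimeric thrombospondins, which restrain vessel growth through CD36 and CD47. Thrombospondin-1 can also release active TGF-beta from its latent complex, which thrombospondin-2 does not do. Thbs4 encodes a pentameric relative known in heart muscle for supporting the endoplasmic reticulum stress response. Their genes lie on chromosome 2 (Thbs1, 118111876 to 118127133), chromosome 17 (Thbs2, 14665500 to 14694235) and chromosome 13 (Thbs4, 92751590 to 92794818).

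Thbs1 had 752, 746, 552 and 469 normalized counts in the 4 controls and 3432, 6653 and 11901 in the 3 myocarditis hearts. All 3 myocarditis hearts were above the controls, with a wide spread among themselves. Thbs1 rose by 3.39 log2 units (limma SE 0.383, adjusted p = 0.00251). Thbs4 had 167, 72.8, 203 and 133 normalized counts in the control hearts and 949, 1849 and 2334 in ICI-myocarditis. Control 2 was the lowest control here, unlike for Tnc. The rise of Thbs4 was 3.56 (SE 0.403, limma adjusted p = 0.00251), and it rested on as few as 59 reads in a control library.

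Thbs2 had 1707, 1293, 2674 and 1773 normalized counts in the control hearts and 1780, 1420 and 2630 in ICI-myocarditis. Both groups ran over nearly the same range. Its log2 fold change was 0.06, with a 95% interval from -0.59 to 0.72 (SE 0.291, limma adjusted p = 0.913), so an increase of the size seen for Thbs1 or Thbs4 lay outside the interval. The sign of this small difference turned without control 2 (-0.09), without ICI-myocarditis 3 (-0.18) and with quality weights (-0.43).

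Because related genes can be set against each other inside one heart, where library scaling cancels, 8 pairs were compared with exact permutation tests (two-sided, 35 arrangements of the group labels). The smallest p this design gives is 0.0286, and Benjamini-Hochberg adjustment ran over the 8 pairs. The pairs were drawn from members and lists chosen with earlier results of these data known. Most set a gene already seen to rise against one that did not, so these p-values restate that separation and are not independent support. Every pair that passed had the smallest p, so its adjusted value of 0.0381 depended on how many of the 8 pairs reached it. The log2 ratio of Thbs1 to Thbs2 reads averaged -1.54 ± 0.677 (SD, n = 4) over the controls and 1.78 ± 0.726 (SD, n = 3) over the myocarditis hearts, a shift of 3.33 (exact permutation p = 0.0286, adjusted 0.0381). Thbs2 reads outnumbered Thbs1 reads in every control heart, and the reverse held in every myocarditis heart. The log2 ratio of Thbs2 to Thbs4 fell by 3.51, from 3.74 to 0.23 (exact permutation p = 0.0286, adjusted 0.0381). Thbs1 and Thbs4 kept a log2 ratio of 2.20 ± 0.83 in controls and 2.02 ± 0.289 in ICI-myocarditis, a difference of -0.18 (exact permutation p = 0.83, adjusted 0.83). With control 2 left out that difference was 0.21, so the data do not order these 2 rises.

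The CCN genes split in the same manner. CCN proteins are short modular proteins that bind integrins and heparan sulphate. Ctgf lies on chromosome 10 (24595442 to 24598683, plus strand) and Cyr61 on chromosome 3 (145646976 to 145649981, minus strand). Ctgf had 2979, 2111, 2326 and 2913 normalized counts in the control hearts and 9361, 6509 and 21370 in ICI-myocarditis. The groups did not overlap, and ICI-myocarditis 3 was more than double the others in its group. Ctgf rose by 2.10 log2 units (limma SE 0.375, adjusted p = 0.00757), and by 1.61 without ICI-myocarditis 3.

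Cyr61 had 1514, 1630, 1547 and 1637 normalized counts in controls, the narrowest range of the 9 genes relative to its mean. In ICI-myocarditis it had 1014, 1360 and 1929. Myocarditis hearts lay on both sides of the controls, with ICI-myocarditis 1 and 2 below and ICI-myocarditis 3 above. The log2 fold change of Cyr61 was -0.19, with a 95% interval from -0.70 to 0.32 (SE 0.226, limma adjusted p = 0.629), and it was 0.03 without ICI-myocarditis 1. Within single hearts the log2 ratio of Ctgf to Cyr61 reads was 0.98, 0.37, 0.59 and 0.83 in controls and 3.21, 2.26 and 3.47 in ICI-myocarditis. That is a shift of 2.29 on the log2 scale, or 4.88-fold, with no overlap (exact permutation p = 0.0286, adjusted 0.0381).

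**Figure D2:**
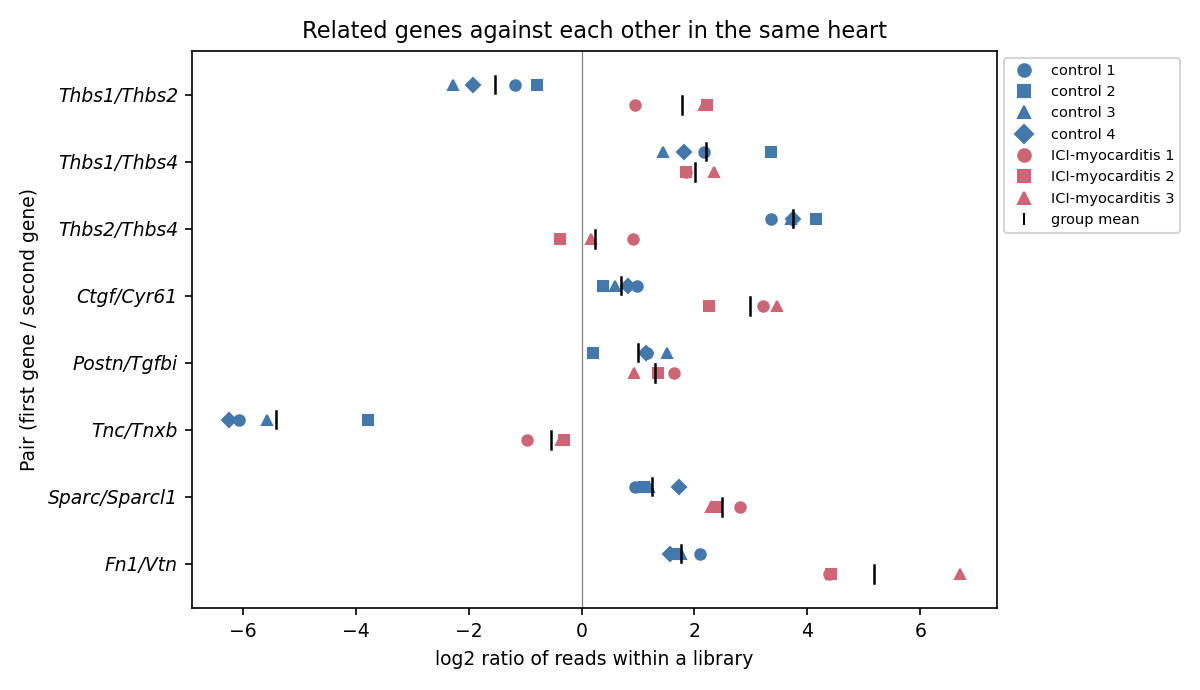
Log2 ratio of the reads of 2 related genes within each library, with controls in blue, ICI-myocarditis in red, a marker shape for each replicate number and a black tick at each group mean. The groups do not overlap for 6 of the 8 pairs and overlap for Thbs1/Thbs4 and Postn/Tgfbi.

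The sequence just before the start site was read for the members with a promoter window, since YAP and TAZ act through TEAD sites. RefSeq promoter windows (GRCm38.p6) were matched for 6 members: Postn, Tnc, Thbs2, Thbs4, Sparc and Cyr61. Thbs1, Ctgf and Fn1 were not matched. Where the table held 2 windows (Postn and Tnc), the one nearest the GENCODE start was used. The RefSeq start site of Sparc lies inside the GENCODE span of the gene, downstream of the GENCODE start. In the 250 bases before each start site, both strands were searched for 6 motifs. The TEAD motif was searched as GGAATG and the AP-1 motif as TGANTCA. The STAT motif was searched as TTCNNNGAA and the SMAD palindrome as GTCTAGAC. The TATA box was searched as TATAAA, and the sixth motif was the CArG box bound by SRF. Cyr61, which did not pass the test, and Thbs4 and Postn, which rose, are shown. They stand on the minus strand at chr3:145649986-145650235 (Cyr61) and chr13:92794819-92795068 (Thbs4) and on the plus strand at chr3:54360857-54361106 (Postn), each written 5′ to 3′ in the direction of its gene, with matches in capitals.
Cyr61: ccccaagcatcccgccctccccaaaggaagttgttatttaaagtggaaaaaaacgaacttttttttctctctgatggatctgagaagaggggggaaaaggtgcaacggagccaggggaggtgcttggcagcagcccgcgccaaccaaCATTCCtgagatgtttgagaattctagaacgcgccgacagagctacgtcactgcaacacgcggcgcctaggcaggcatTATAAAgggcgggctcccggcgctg
Thbs4: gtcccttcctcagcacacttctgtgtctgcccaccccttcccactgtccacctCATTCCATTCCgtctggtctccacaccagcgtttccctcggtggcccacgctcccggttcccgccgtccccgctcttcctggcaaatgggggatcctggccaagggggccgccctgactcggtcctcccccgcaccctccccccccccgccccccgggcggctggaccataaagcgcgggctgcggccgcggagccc
Postn: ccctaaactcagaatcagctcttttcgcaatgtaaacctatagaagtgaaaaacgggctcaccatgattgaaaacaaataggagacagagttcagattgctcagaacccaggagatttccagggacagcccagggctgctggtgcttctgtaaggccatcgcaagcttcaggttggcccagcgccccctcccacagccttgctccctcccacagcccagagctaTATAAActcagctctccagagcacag
In Cyr61 the capitals mark a TEAD match on the reverse strand (read as CATTCC) at -103 to -98 and a TATA match at -25 to -20, counted back from the base before the start site as -1. In Thbs4 they mark a pair of TEAD matches on the reverse strand that share 1 base, at -197 to -192 and -192 to -187. In Postn they mark a TATA match at -26 to -21. Tnc and Thbs2 held a TATA match further upstream, at -126 to -121 in each. It was on the forward strand in Tnc and on the reverse strand (read as TTTATA) in Thbs2. None of the 6 motifs was found in the Sparc window, which does not cover the GENCODE start. Over all 32851 promoter windows of the same length, 12.6% held the TEAD letters, 12.4% TATA, 6.75% AP-1, 7.02% STAT, 1.47% a CArG box and 0.167% the SMAD palindrome. The TEAD letters were present in the windows of Cyr61, which did not pass, and Thbs4, which rose. Without a window for Ctgf, the promoters of Ctgf and Cyr61 could not be compared. The counts per gene do not show whether any site is bound.

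Sparc and Fn1 had the highest mean normalized counts of the set in both groups, although in ICI-myocarditis 1 Postn exceeded Fn1. Sparc encodes a collagen-binding protein that assists procollagen handling and is made steadily by fibroblasts and endothelium. The gene lies on chromosome 11 (55394500 to 55423183, minus strand). Sparc had 35510, 32086, 33044 and 31399 normalized counts in the control hearts and 36958, 37450 and 33379 in ICI-myocarditis. ICI-myocarditis 1 and 2 were above every control and ICI-myocarditis 3 was below control 1. The log2 fold change was 0.12, with a 95% interval from -0.44 to 0.69 (SE 0.251, limma adjusted p = 0.792). Its relative Sparcl1, which encodes the SPARC-like protein hevin, had 14301 ± 3688 normalized counts in the control hearts and 6444 ± 1000 in ICI-myocarditis, and fell by 1.12 log2 units (limma SE 0.281, adjusted p = 0.0265). The Sparcl1 call was lost without any 1 of controls 1 and 3 or any 1 of the ICI-myocarditis libraries (limma adjusted p from 0.0680 to 0.0936) and under scaling by library size (0.0767). The log2 ratio of Sparc to Sparcl1 went from 1.24 ± 0.340 to 2.49 ± 0.274, without overlap (exact permutation p = 0.0286, adjusted 0.0381).

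Fn1, on chromosome 1 (71585520 to 71653200, minus strand), encodes fibronectin, which links collagen and fibrin to integrins. Fn1 had 7433, 5042, 5075 and 3514 normalized counts in the control hearts and 11430, 18452 and 37020 in ICI-myocarditis. The lowest myocarditis heart had 1.54 times the count of the highest control, a narrower gap than for the other 5 genes that rose (2.18 for Ctgf to 7.53 for Tnc), and ICI-myocarditis 3 was again the highest. Fn1 rose by 1.96 log2 units (limma SE 0.411, adjusted p = 0.0131). Its splice forms are not separated by a count per gene. Vtn, which encodes the plasma and matrix adhesion protein vitronectin, fell by 1.44 log2 units (limma SE 0.294, adjusted p = 0.0120), with 1741, 1594, 1497 and 1186 normalized counts in the control hearts and 545, 860 and 354 in ICI-myocarditis. The log2 ratio of Fn1 to Vtn rose from 1.77 ± 0.229 to 5.17 ± 1.33 (exact permutation p = 0.0286, adjusted 0.0381). That shift of 3.40 was 2.63 without ICI-myocarditis 3, where the Fn1 to Vtn ratio was highest.

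Levels were compared between genes per kilobase of annotated exon (GENCODE M21), a scale that depends on the transcripts annotated. In controls Sparc was highest at 8714 ± 475 normalized counts per kb (SD, n = 4), followed by Ctgf at 902 ± 150 and Cyr61 at 783 ± 30.1, which overlapped each other. Fn1 (450 ± 138), Thbs2 (266 ± 83.1) and Postn (257 ± 58.0) formed a middle run in which each overlapped the next. Thbs1 followed at 104 ± 23.4, and Thbs4 (43.8 ± 16.9) and Tnc (34.3 ± 30.5) were lowest and overlapped. In ICI-myocarditis Sparc was again first, at 9485 ± 587 (SD, n = 3), without overlap with Ctgf at 4339 ± 2757. From Ctgf through Postn, Fn1, Thbs1, Tnc, Cyr61 and Thbs4 to Thbs2 each gene overlapped its neighbour, so this order is not fixed beyond the spread. Tnc stood last in controls and had 997 ± 350 per kb in ICI-myocarditis, while Thbs2 had 278 ± 88.7 and stood last there.

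**Figure D3:**
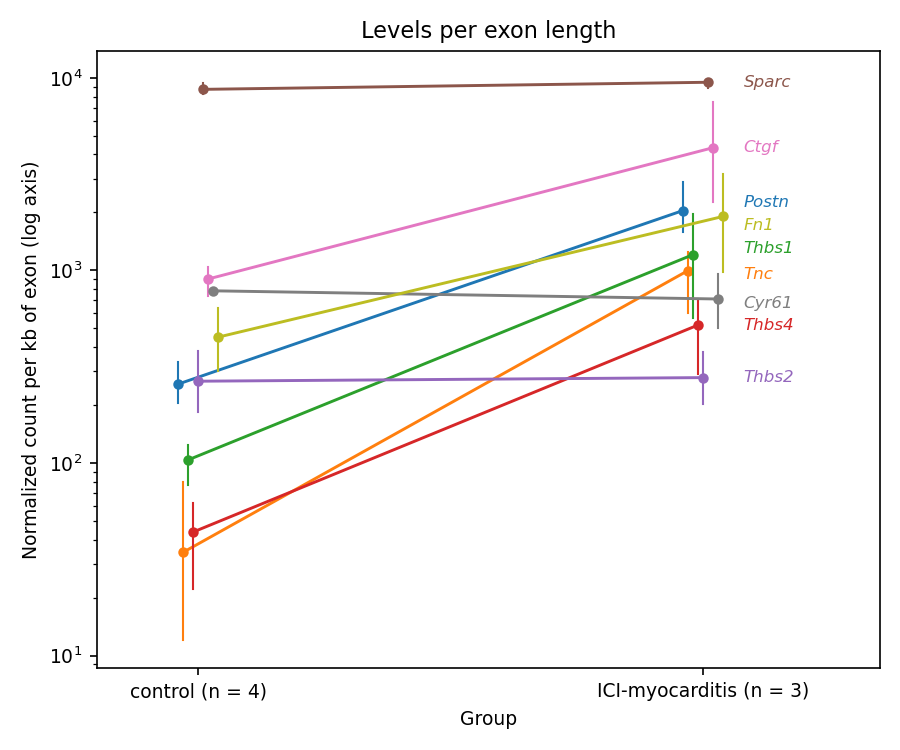
Normalized counts per kb of exon (log axis) of each gene in the 2 groups. Points are group means, vertical lines run from the lowest to the highest library, and joined points belong to 1 gene. Sparc stays on top near 8714 and 9485, and the lines of Cyr61 and Thbs2 are nearly flat while the 6 others climb.

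The libraries did not rank alike across the set. ICI-myocarditis 3 was the highest of its group for 7 of the 9 genes, and for 5 of the 6 that rose, the exception being Tnc, which was highest in ICI-myocarditis 2. ICI-myocarditis 1 was the lowest for 6 of the 9. Among controls, control 4 was lowest for 5 genes and control 1 highest for 4. ICI-myocarditis 3 also had the highest summed macrophage level, at 61038 normalized counts over 7 genes, against 29212 and 35729 in the other 2 and 7600 to 9249 in controls. This was not particular to macrophages. Within its group it was also highest for activated fibroblast sums (30528 against 13114 and 19840) and fibroblast identity sums (80919 against 57357 and 61930). The same held for T cell, endothelial, endocardial and valve, smooth muscle, and tendon and cartilage sums. It was lowest for mural, cardiomyocyte, platelet, skeletal muscle and fat sums. The part of these cell types in the values of the 9 genes was not tested.

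Across the 7 libraries, profiles of log2(normalized count + 1) relative to the control mean were compared by their root mean square distance, over the tested genes with a mean of at least 100 normalized counts. The closest pair of members among those that rose was Ctgf and Fn1 (distance 0.465 in log2 units), then Postn and Thbs1 (0.488). Outside the set, Postn was nearest to Aldh1a2 (0.302), Ptgs2 (0.315) and Dkk3 (0.331). Tnc was nearest to Kcnn4 (0.456), Socs1 (0.458) and Cd200r4 (0.460). Thbs1 was nearest to Slc13a3 (0.334), Fcer1g (0.344) and Cadm1 (0.347). Thbs4 was nearest to Cilp (0.377), Gdf6 (0.522) and Dkk3 (0.630). Ctgf was nearest to Mfap5 (0.241), Abcc3 (0.254) and Hmox1 (0.281), and Fn1 to Mmp14 (0.152), Ttc9 (0.165) and Anpep (0.175). Thbs2, which did not rise, was nearest to Colec12 (0.102), Dcn (0.138) and Flrt2 (0.161). Sparc was nearest to B4galt7 (0.0630), Aldh3a2 (0.0702) and Zfp259 (0.0740), and Cyr61 to Trim16 (0.0808), Usp34 (0.102) and Ccdc55 (0.106).

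Other matricellular genes changed in both directions. Of 19 listed, 16 passed the filter on low values, 6 rose (37.5%), 2 fell (12.5%) and 8 did not pass the test. The shares over all genes tested were 11.7% and 4.00%. The median log2 fold change was 0.37 against -0.02 over all genes. Spp1, which encodes osteopontin, rose from 15.7 ± 16.7 to 303 ± 83.4 normalized counts, by 4.58 (SE 0.597, limma adjusted p = 0.00340). Tgfbi, the fasciclin-domain relative of Postn, rose from 1133 ± 372 to 7758 ± 4745, by 2.66 (limma adjusted p = 0.00405). The ratio of Postn to Tgfbi was not distinguishable between groups (log2 difference 0.30, exact permutation p = 0.571, adjusted 0.653).

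The CCN genes Wisp2 (2.22, limma adjusted p = 0.0105) and Wisp1 (1.33, limma adjusted p = 0.00714) also rose, as did Thbs3 (1.38, limma adjusted p = 0.00793) and Fstl1 (1.37, limma adjusted p = 0.00716), which encodes a follistatin-like protein of the SPARC family. With quality weights the rise of Wisp2 was 1.49. Nov, also a CCN gene (-0.24), and Comp, also a thrombospondin gene (0.24), did not pass (limma adjusted p = 0.618 and 0.847). The CCN gene Wisp3 did not pass the filter on low values. Vtn and Sparcl1 were the members that fell. The most abundant that did not pass were Tnxb, the tenascin of resting connective tissue, with a log2 fold change of 0.29, Smoc2 at -0.996 and Spock2 at 0.82 (limma adjusted p = 0.527, 0.0713 and 0.185). Smoc2 passed without control 2 (limma adjusted p = 0.0228), with DESeq2 (adjusted p = 0.0313) and in limma-voom with quality weights (adjusted p = 0.0101). The log2 ratio of Tnc to Tnxb went from -5.41 ± 1.13 to -0.54 ± 0.367, a shift of 4.87 (exact permutation p = 0.0286, adjusted 0.0381). Tnxb reads outnumbered Tnc reads in all 7 hearts.

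**Figure D4:**
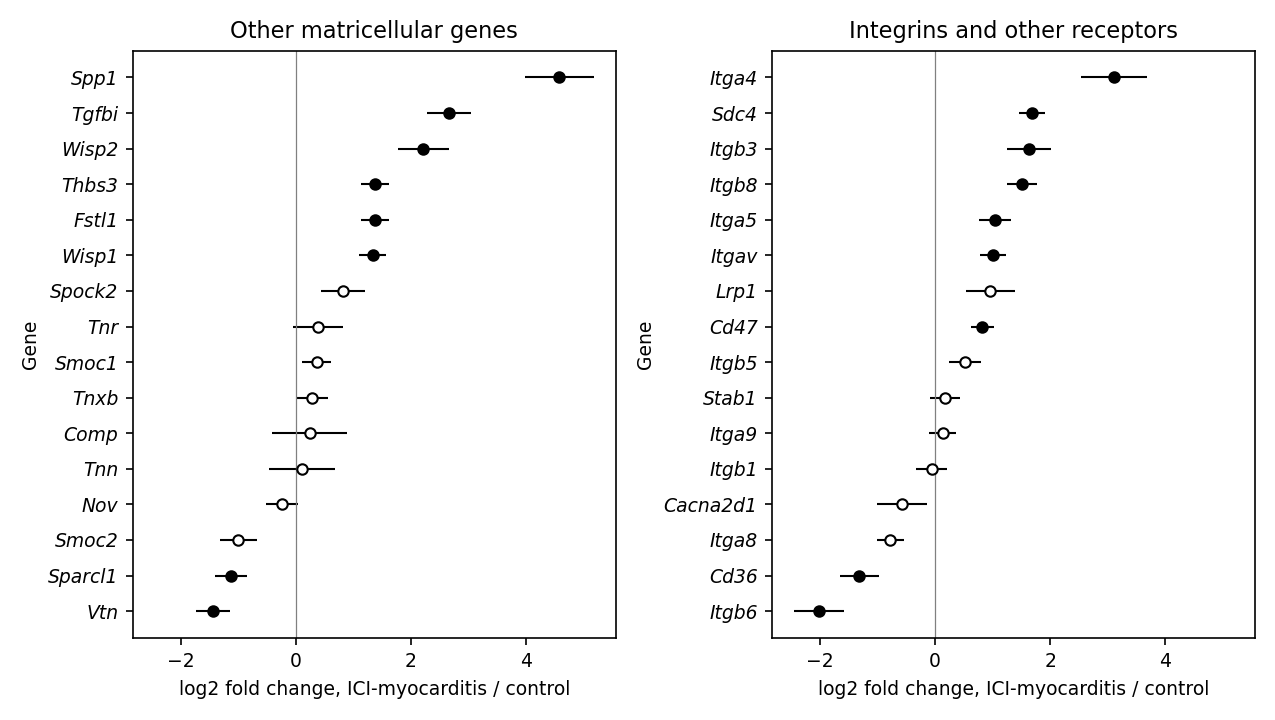
Log2 fold change (ICI-myocarditis over control) of the tested genes of 2 lists, other matricellular genes on the left and their receptors on the right. Bars are 1 SE of the limma fit, filled points passed an adjusted p of 0.05 and open points did not. Spp1 at 4.58 and Itga4 at 3.10 lie farthest to the right, and Vtn and Itgb6 farthest to the left.

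The receptors of these proteins were read as a list of 16 genes, all tested, of which 7 rose (43.8%), 2 fell (12.5%) and 7 did not pass. The shares over all genes tested were 11.7% and 4.00%. The median log2 fold change of the list was 0.67. Itga4, the alpha chain of a leukocyte integrin that binds fibronectin, rose by 3.10 (limma adjusted p = 0.00849), and control 2 was its highest control (1537 normalized counts against 214 to 464 in the others). Sdc4, a syndecan that binds fibronectin and tenascin-C, rose by 1.68 (limma adjusted p = 0.00363). Integrin genes Itgb3 (1.63), Itgb8 (1.51), Itga5 (1.04) and Itgav (1.01) rose (limma adjusted p = 0.0210, 0.00602, 0.0336 and 0.0170), as did the thrombospondin receptor gene Cd47 (0.82, limma adjusted p = 0.0267). Itgb6 fell by 2.01 (limma adjusted p = 0.0147), and the thrombospondin receptor gene Cd36, which muscle and vessels also use for fatty acid uptake, fell by 1.32 (limma adjusted p = 0.0291). The abundant receptors Itgb1 (-0.06), Lrp1 (0.96) and Cacna2d1 (-0.57) did not pass (limma adjusted p = 0.916, 0.162 and 0.428). Lrp1 passed with DESeq2 (adjusted p = 0.0490). The calls of Itga4, Itgb8, Sdc4 and Itgb6 held in all 17 alternatives, though the log2 fold change of Itgb6 was -1.40 without ICI-myocarditis 3 and -1.43 with quality weights. Calls were lost for Itgav without control 1 or ICI-myocarditis 2 or 3 (limma adjusted p from 0.0502 to 0.0770), for Itgb3 without control 3 or ICI-myocarditis 2 or 3 (0.0586 to 0.0841) and for Itga5 without control 1, 3 or 4 or ICI-myocarditis 2 or 3 (0.0512 to 0.129). Likewise Cd36 was lost without control 3 or 4 or ICI-myocarditis 2 or 3 (0.0539 to 0.134) and Cd47 without control 1 or 3 or any 1 ICI-myocarditis library (0.0573 to 0.0938). The number called higher was 3 without ICI-myocarditis 2 or without ICI-myocarditis 3, and 4 without control 1 or without control 3. The number called lower was 1 without control 3, ICI-myocarditis 2 or ICI-myocarditis 3.

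Of 17 tested regulators in the TGF-beta and YAP/TEAD pathways, 3 rose, 1 fell and 13 did not pass, and the median log2 fold change was 0.06. These shares, 17.6% higher and 5.88% lower, lie near the 11.7% and 4.00% over all genes tested, so the counts say nothing particular about this list. Tgfb2 rose by 1.29, Tgfbr1 by 1.27 and Tgfbr2 by 0.87 (limma adjusted p = 0.0107, 0.00869 and 0.0412). Wwtr1, which encodes TAZ, had 6157 ± 563 normalized counts in the control hearts and 3809 ± 45.1 in ICI-myocarditis, and fell by 0.69 log2 units (limma adjusted p = 0.0384). The Wwtr1 call was lost without any 1 library other than control 2 (limma adjusted p from 0.0519 to 0.136) and under scaling by library size (0.154), and that of Tgfbr2 without control 1, 3 or 4 or ICI-myocarditis 2 or 3 (0.0627 to 0.176) and without trend and robust variance (0.0556). Yap1 (-0.20), Tead1 (-0.30) and Smad4 (-0.25) did not pass (limma adjusted p = 0.575, 0.592 and 0.396).

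Of 12 further target genes of these pathways, 5 rose (41.7%), 1 fell (8.33%) and 6 did not pass, with a median of 0.92. The shares over all genes tested were 11.7% and 4.00%. Ltbp2, named as a member of the latent TGF-beta binding protein family, rose by 4.07 (limma adjusted p = 0.00316). Ankrd1, a stress gene of heart muscle and a YAP target, rose by 2.00 (limma adjusted p = 0.00597). Without ICI-myocarditis 3 the rise of Ltbp2 was 3.38. Col1a1 (1.87), Tgif1 (1.86) and Axl (1.48) rose (limma adjusted p = 0.0185, 0.0179 and 0.0121), and Amotl1 fell by 0.89 (limma adjusted p = 0.0311). Without ICI-myocarditis 3 the number called higher was 3, with Col1a1 and Tgif1 lost (limma adjusted p = 0.0788 and 0.0813). Col1a1 was also lost without control 3 (0.0658) or ICI-myocarditis 2 (0.0714), and Tgif1 without control 1 (0.0552). The Amotl1 call was lost without control 1, control 3 or any 1 ICI-myocarditis library (0.0562 to 0.110) and under scaling by library size (0.0756). Acta2 (-0.64), Amotl2 (-0.30) and Lats2 (-0.10) did not pass (limma adjusted p = 0.338, 0.539 and 0.827).

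Markers of the cells that could carry these transcripts moved unequally. Over all genes tested, 11.7% were called higher and 4.00% lower. Of 8 fibroblast identity genes, 1 was called (Mfap4, higher), or 12.5%, which is near that share. Their summed level ran from 62947 to 103830 normalized counts in the control hearts and from 57357 to 80919 in ICI-myocarditis. Gsn, the largest part of this sum in every library, had means of 49898 and 31076 and did not pass. Of 7 genes of activated fibroblasts, 5 rose (71.4%: Cilp, Cthrc1, Lox, Runx1 and Meox1), while Acta2 and Fap did not pass. The sums were 7261 to 12748 and 13114 to 30528. Their largest part was Acta2 in every control (group means 6222 and 4083). In every ICI-myocarditis library it was Cilp (group means 885 and 10719). Macrophage genes rose in 6 of 7 cases (85.7%, sums 7600 to 9249 and 29212 to 61038) and T cell genes in 7 of 7 (100%, sums 128 to 1611 and 6852 to 10495). Of 8 mural and 8 endothelial genes, 4 each fell (50%), with mural sums of 55221 to 73055 and 26362 to 32560 and endothelial sums of 33815 to 80619 and 25664 to 34120. Of 4 tested genes of endocardium and valves, 2 fell (50%, sums 1825 to 4010 and 1300 to 1739), and of 4 smooth muscle genes, 2 fell (50%, Myh11 and Cnn1). The smooth muscle sums (48859 to 84668 and 71954 to 90263) were mostly Des, a gene also abundant in heart muscle, which had 60421 ± 17826 normalized counts in the control hearts and 75411 ± 9839 in ICI-myocarditis and did not pass.

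None of 8 cardiomyocyte genes (sums 2369807 to 4796841 and 1799251 to 2889873), of 5 tested platelet genes (502 to 998 and 322 to 504) or of 4 tested tendon and cartilage genes (252 to 505 and 309 to 727) was called by limma. The log2 fold changes of all 8 cardiomyocyte genes were negative, from -1.27 (Ryr2, limma adjusted p = 0.0593) to -0.46 (Tnnt2), with a median of -0.79. The lack of a call does not show that their levels were unchanged. Of 4 tested skeletal muscle genes, 1 rose (25%, Tnnt3) and 1 fell (25%, Ckm). Ckm went from a mean of 34180 to 10845 normalized counts (limma adjusted p = 0.0374). No fat gene passed the filter (sums 8.07 to 159 and 3.82 to 7.97). None of the listed markers was at 0 in all 7 libraries. The part of these cell types in the values of the 9 genes was not tested. Exons of Ctgf, Fn1, Thbs1 and Tnc overlap those of an annotated gene on the opposite strand. The overlap is 665 bases for Ctgf, 292 for Fn1, 208 for Thbs1 and 176 for Tnc, and the strand setting of the counting is not given in the sources used here. Apol7d, the overlapping gene at Fn1, had at most 4.35 normalized counts.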

How the data were processed

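The 9 members and the gene lists were chosen with earlier results of these data known. Per the labels, a stranded kit for total RNA was used, with paired-end sequencing. The submitters' processing notes name STAR 2.7.3 and GRCm38 (mm10), with no role given. The counting program and annotation are not given in the sources used here. The deposited library columns hold a signal, namely gene read counts that the authors divided by 1 size factor per library, as the values show. Division by the smallest step gave whole numbers, within 0.01, for 100% of values in all 7 libraries, which recovered the reads. In control 1 the step of 1.01 is too close to 1 to be strong evidence of recovery. Per the file headers, the table also holds results of the authors' own comparison: log2 fold changes, their standard errors, the statistic (a score) and p-values before and after adjustment.

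Groups were compared with limma 3.58.1 under R 4.3.3, with trend and robust variance, after adding 1 to each normalized count and taking log2. Genes needed 10 or more normalized counts in 3 or more libraries, and Benjamini-Hochberg adjustment covered the 15258 that passed. Alternatives were other pseudocounts, no filter, other scalings, edgeR 4.0.16, DESeq2 1.42.0 and limma-voom on recovered reads, a replicate block and each library left out. The limma, edgeR, DESeq2 and voom fits were tested on simulated counts with known changes, and the permutation test was not. The simulation gave every gene the same dispersion and held no outlying library, so it does not cover the spread between libraries seen here. Named genes were the 9 members, called genes of the pathway lists with up to 3 abundant ones not called, and the 3 nearest profiles per member. Adgre1, Trac and Mrtfa were not matched by name. The labels used here give no batch. Annotation came from GENCODE M21 (GRCm38) and promoters from RefSeq (GRCm38.p6).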

Additional observations from a re-analysis of the deposited data

How the results depend on the processing

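All 6 calls and the 3 members that missed the threshold kept their side in all 17 alternatives. The log2 fold changes ranged from 2.60 to 3.13 for Postn, 4.77 to 5.67 for Tnc, 2.95 to 3.85 for Thbs1, 3.26 to 3.94 for Thbs4, 1.61 to 2.47 for Ctgf and 1.51 to 2.36 for Fn1, and the largest adjusted p was 0.0445 (Fn1 without control 3). Small differences changed sign. With quality weights Thbs2 was at -0.43, and with 1 library left out it ranged from -0.18 to 0.27, Cyr61 from -0.43 to 0.035, the Thbs1 to Thbs4 ratio from -0.43 to 0.21, Itgb1 from -0.163 to 0.054 and Lats2 from -0.21 to 0.082. Scaling by library size only moved the median log2 fold change of all genes by 0.16, and put Itgb1 at 0.10 and Lats2 at 0.058, below that shift. With 1 library left out, 0 of the 8 ratios passed, against 6 with all, because 6 libraries give no exact permutation p below 0.0667. The 2397 calls over all genes became 986 without ICI-myocarditis 3, 1298 without control 3, 1396 without ICI-myocarditis 2, 1508 without control 1 and 4014 with quality weights. DESeq2 called 3444 and edgeR 2130. With the replicate block 6 members were called, and 1780 genes in all. The block ended the calls of Sparcl1, Wwtr1, Tgfbr2, Amotl1, Col1a1, Axl, Itgb3, Itga5, Cd36 and Cd47 (adjusted p from 0.0513 to 0.216). Of these, Wwtr1, Tgfbr2, Itga5 and Cd36 were also lost without control 4 and no block. Same-numbered libraries had correlations of -0.271, -0.206 and -0.078 over tested genes, inside the range of the other pairs (-0.477 to 0.451). With so few libraries these values cannot decide whether same-numbered libraries share more than a number. Under the block Itgb1 was at 0.054 and the receptor list had 4 genes called higher and 1 lower. The smallest count of any member in a library was 59 reads (Thbs4).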
